A study of Oryza sativa with 80 samples.

Results

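The drought by heat interaction asks whether a heat shock changes the level of a transcript by more or by less in leaves grown under drought than in well-watered leaves. It was measured here within the libraries whose labels give batch 2, which are 45 of the 80 libraries of the series and 9 of its 16 leaf pools. The tissue was the blade of leaf number 3 of rice (Oryza sativa) seedlings, when mature. D40 leaves grew in soil kept at a water content of 1.5 g/g (water to dry soil), which limits growth, and took a heat shock of 40 °C for 30 min (2 pools). D30 leaves grew in the same dry soil and stayed at 30 °C (2 pools). W40 leaves grew in soil at 3 g/g and took the same heat shock (3 pools), and W30 leaves grew at 3 g/g and stayed at 30 °C (2 pools). Drought leaves were collected at 12 days and well-watered leaves at 10 days, when that leaf was fully elongated, so leaf age and soil water cannot be told apart. A pool held matched segments of 3 leaves, sequenced as 5 libraries from segment 2 near the base to segment 6 near the tip. The 5 libraries were summed, and the pool was the replicate. Nothing in the labels says what a batch was.

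Heat unfolds proteins, and plants answer by making chaperones, which hold or refold them, under the control of heat stress transcription factors. Drought acts largely through the hormone abscisic acid. It binds receptors that block the clade A PP2C phosphatases, which frees kinases to switch on bZIP factors and protective genes such as dehydrins, while many PP2C genes are themselves induced by the hormone. Both programs run in the leaf blade, whose main task is photosynthesis. The files name genes by MSU locus IDs only, and no table used here pairs them with names. Loci are therefore called by the name of the list that holds them. Lists were entered from general knowledge with earlier results of these data known, and no annotation used here could check them. List counts set beside shares of all genes are therefore a description, and cannot show an excess over all genes.

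Counts were deep, at 423701028 to 513401279 per pool. The first component of a principal component analysis of the 9 pools held 47.7% of the variance and the second 34%, and the 4 groups lay apart on these components. The leaf marker LOC_Os09g17740, entered as a light harvesting locus, was at a high level. It had 16685 and 19906 CPM in the D40 pools and 18155 and 14706 CPM in the D30 pools. The W40 pools had 18435, 15249.8 and 17041 CPM, and the W30 pools 15516 and 16032 CPM. The D30 range takes in every W30 pool and overlaps the D40 and W40 ranges. This locus does not stand for all leaf genes. In the Rubisco and Calvin cycle list, 9 of 11 tested loci were lower in D40 than in W40 pools (edgeR, adjusted p under 0.05). In D30 against W30 pools, 6 were lower. Of all genes, 24.6% and 15.3% were lower. In the photosystem and light harvesting list these counts were 3 and 0 of 18. Both loci entered as shoot meristem markers had too few counts to be tested. Of the loci entered as root markers, LOC_Os02g51110 was measured, with 55.3 and 38.7 CPM in the D40 pools and 19.2 and 16 CPM in the D30 pools, against 52.9, 39.7 and 42.8 CPM in the W40 pools and 25.7 and 28.3 CPM in the W30 pools, and was therefore not absent from these leaves. In leaf pieces, fewer cells of a type and less RNA per cell cannot be told apart.

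The heat response of drought leaves differed from that of well-watered leaves for 4310 of 25484 genes tested in batch 2, or 16.9% (edgeR, adjusted p under 0.05). The interaction was above 0 for 1964 genes (7.71%), whose log2 heat response was higher in drought leaves, and below 0 for 2346 (9.21%). The median over all genes was -0.043. An absolute interaction of at least 1 on the log2 scale was reached by 2110 of them (8.28%). Heat itself was called for 13010 genes in drought leaves (51.1%) and for 13430 in well-watered leaves (52.7%). The direction split depended on scaling and on the filter. With TMM scaling 45.6% of the calls were above 0, but 19.2% of 5169 when counts were scaled to library totals only. Scaling to library totals put the median of all genes at -0.285. With TMM scaling and a stricter filter, at a mean of at least 5 CPM, 55.3% of 3829 calls were above 0. Leaving out W30 replicate 3 gave 1792 calls, W30 replicate 4 gave 2219 and D30 replicate 4 gave 2228, and no other single pool moved the count by over 1.5 times.

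**Figure D1:**
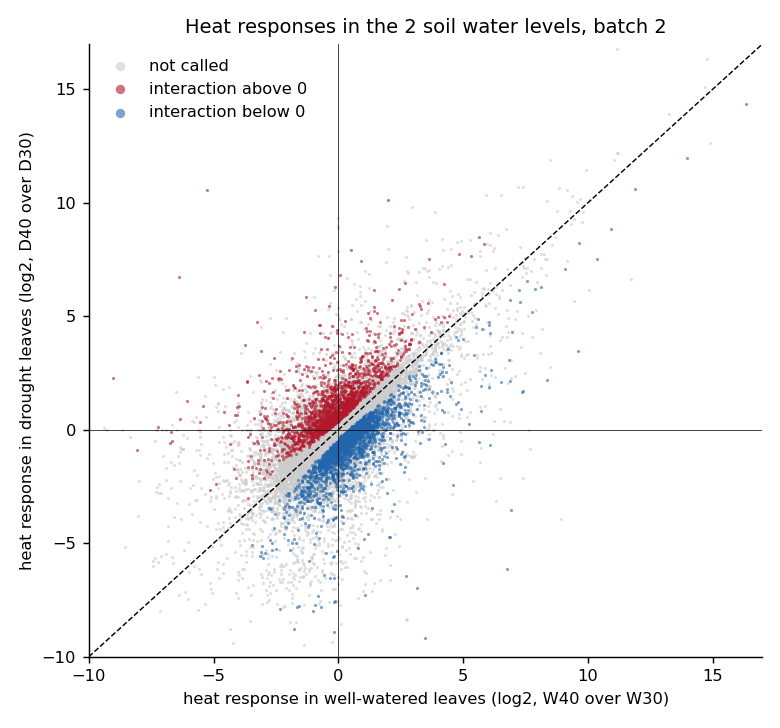
Log2 heat response of each gene in drought leaves (D40 over D30, vertical) against that in well-watered leaves (W40 over W30, horizontal), batch 2. Red and blue mark genes with an interaction above and below 0 at adjusted p under 0.05, grey the rest, the dashed line equal responses; 3 genes lie outside the axes. The 1964 red and 2346 blue genes lie above and below the line, including many near 0 on 1 axis.

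The called genes fell into 6 kinds by the signs of both estimated heat responses, as a description of the same fit with no test of its own. In 771 genes heat raised the transcript and the log2 rise was larger in drought, with medians of 1.6 in drought and 0.554 in well-watered leaves. In 619 genes the rise was smaller in drought, with medians of 0.456 and 1.447. A fall was larger in drought for 699 genes and smaller in drought for 287. Both heat responses were called in 507 of the 771, 351 of the 619, 400 of the 699 and 114 of the 287 genes. In the rest of these genes heat was called in a single soil water, and the other response is known by its estimated sign only. The estimates had opposite signs in 1934 genes, above 0 in drought and below 0 in well-watered leaves for 906 and the reverse for 1028. Both heat responses were called in 425 of these 1934 genes. Responses in the same direction were thus larger in drought for 1470 genes and smaller for 906. With DESeq2 the response was larger in drought for 2152 genes and smaller for 1386, and with scaling to library totals it was larger for 2267 and smaller for 800.

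The interaction of batch 2 was not found again in batch 1. The 7 pools of batch 1, which include 1 W40 pool, gave 120 calls among 25305 genes (0.474%), 46 above and 74 below 0. DESeq2 called 1419 genes in the same pools. A fit of all 16 pools with batch as a term called 0 genes by edgeR, with 2835 of 25103 at an unadjusted p under 0.05, while DESeq2 called 454. The difference between the interactions of batch 2 and batch 1 was itself called for 2564 of 27136 genes (9.45%). Among genes above 0 in batch 2, 45.4% were above 0 in batch 1, against 52.2% of all genes tested in both. Among genes below 0 in batch 2, 41.6% were below 0 in batch 1, against 47.8% of all. Of 4291 batch 2 calls tested in both batches, 18 were called in batch 1 in the same direction and 26 in the opposite one. The 18 are 0.419% of the batch 2 calls and 15% of the 120 batch 1 calls. What follows describes batch 2. The batch 1 interaction is given for each named locus whose difference between batches was called.

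Across 26 lists of stress and leaf genes, 48 of 223 tested loci had a called interaction (21.5%), against 16.9% of all genes. It was above 0 for 23 and below 0 for 25, against 7.71% and 9.21% of all genes. The median over all listed loci was 0.027. The same shares of 7.71% above 0 and 9.21% below 0 stand beside each list count of interaction calls that follows. Of the 48 calls, 24 were kept in each of the 9 fits that left out 1 pool. Without W30 replicate 3, 22 were lost, and 26 listed loci were called in that fit. Without W30 replicate 4, 19 were lost. A locus named below without a remark on pools kept its call in all 9 fits.

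**Figure D2:**
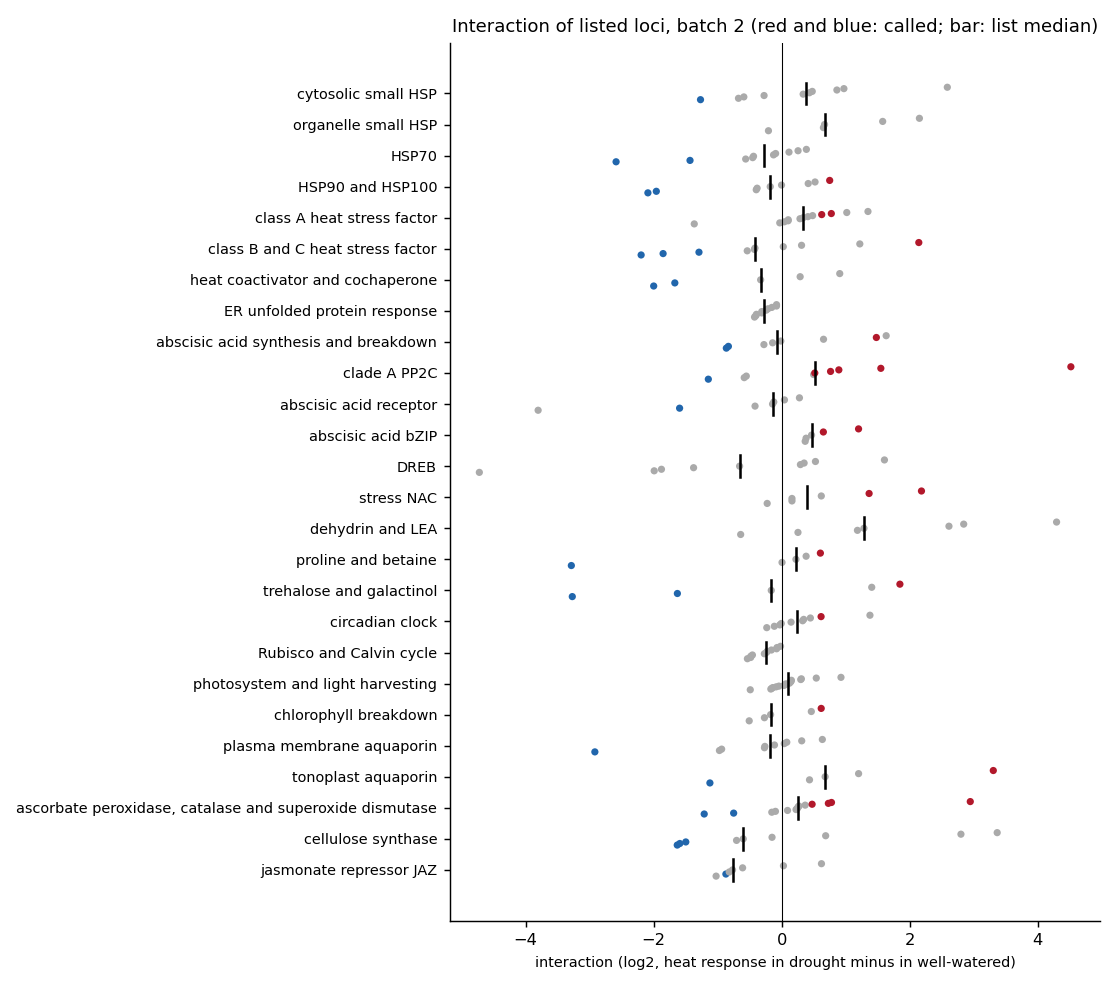
Interaction on the log2 scale (horizontal; heat response in drought minus that in well-watered leaves) of each tested locus, by list (vertical). Red and blue points are called above and below 0, grey points are not called, and bars are list medians. The 5 chaperone lists near the top hold 1 red and 7 blue points, and the clade A PP2C list 5 red and 1 blue; estimates of loci with 0 counts in 2 groups have no meaning.

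Chaperone loci rose with heat in both soil waters, and most were at a higher level in drought leaves both at 40 °C and at 30 °C. In 5 lists (cytosolic and organelle small heat shock proteins, HSP70, HSP90 and HSP100, coactivator and cochaperone), heat raised 38 of 39 tested loci in drought leaves and 37 in well-watered leaves, against 26.4% and 27.5% of all genes. D40 pools were called above W40 pools for 29 of the 39 loci and below for 1, against 23.3% and 24.6% of all genes. Such counts refer to the test of drought at that temperature, not to pools that do not overlap. D30 pools were called above W30 pools for 24 and below for 2, against 17.9% and 15.3% of all genes. The interaction was below 0 for 7 loci and above 0 for 1 by edgeR, against 9.21% and 7.71% of all genes. By DESeq2 it was below 0 for 9 and above 0 for 3. The edgeR median over the 39 was -0.095. The 7 had a smaller fold rise in drought.

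Of these 7, LOC_Os05g38530 of the HSP70 list, whose members bind unfolded chains, had 3904 and 4351 CPM in the D40 pools and 113 and 112 CPM in the D30 pools, against 2465, 1968 and 3145 CPM in the W40 pools and 12.7 and 10.2 CPM in the W30 pools. Every D40 pool was above every W40 pool, and the D30 pools lay far above the W30 pools. Its log2 heat response was 5.20 in drought and 7.78 in well-watered leaves, an interaction of -2.59 (SE 0.29, adjusted p = 0.00122). The other called HSP70 locus, LOC_Os01g62290, had 9710.0 and 10923 CPM in the D40 pools and 33.6 and 36 CPM in the D30 pools, against 4924, 4582 and 6153 CPM in the W40 pools and 7.31 and 5.76 CPM in the W30 pools. It showed the same order of groups, and its interaction was -1.43 (SE 0.25, adjusted p = 0.00692).

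In the list of HSP90 and HSP100, which fold signalling proteins and pull aggregates apart, LOC_Os05g44340 had 4152 and 5733 CPM in the D40 pools and 11.1 and 10.3 CPM in the D30 pools, against 1199, 1461 and 1855 CPM in the W40 pools and 0.826 and 0.71 CPM in the W30 pools. No pools of D40 and W40 overlapped, nor did those of D30 and W30. The log2 heat response was 8.85 in drought and 10.94 in well-watered leaves, and the interaction was -2.09 (SE 0.31, adjusted p = 0.00341). LOC_Os04g01740 was near 0 at 30 °C, with 0.399 and 0.57 CPM in the D30 pools and 0.0828 and 0.0152 CPM in the W30 pools. At 40 °C it had 9742 and 10974 CPM in the D40 pools and 3760.2, 3801 and 4401 CPM in the W40 pools. Its interaction of -1.96 (SE 0.55, adjusted p = 0.0422) rests on those low values and lost its call in 7 of the 9 fits that each left out 1 pool (adjusted p from 0.0502 to 0.122), the exceptions being those without W40 replicate 2 and W30 replicate 3; the batch-corrected counts turned it to 0.67. LOC_Os09g30412 went the other way, with 1687 and 1679 CPM in the D40 pools and 144 and 138 CPM in the D30 pools, against 1091, 1053 and 1211 CPM in the W40 pools and 166 and 149 CPM in the W30 pools. Here the D30 pools lay slightly below the W30 pools and the D40 pools above the W40 pools, an interaction of 0.75 (SE 0.16, adjusted p = 0.0137, with an interaction of -0.62 in batch 1). The call was lost without each of D30 replicate 4 and W30 replicate 3 (adjusted p from 0.0575 to 0.0742), and it lies beside near-identical loci that may share reads. LOC_Os08g39140 had 11413 and 12886 CPM in the D40 pools and 7359, 5989.6 and 8944 CPM in the W40 pools. Its interaction of -0.18 (SE 0.26, adjusted p = 0.675) did not pass the test.

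Both called loci of the coactivator and cochaperone list had smaller folds in drought. LOC_Os06g46900 had 1200.4 and 1309 CPM in the D40 pools and 16.5 and 17.2 CPM in the D30 pools, against 557, 522 and 519.6 CPM in the W40 pools and 2.45 and 2.04 CPM in the W30 pools. The 4 groups were separate, and the interaction was -1.67 (SE 0.16, adjusted p = 0.000748). LOC_Os04g28420 had 13778 and 15014 CPM in the D40 pools and 2.92 and 4.2 CPM in the D30 pools. It had 9235, 7781 and 9356 CPM in the W40 pools and 0.483 and 0.605 CPM in the W30 pools. Its log2 heat response was 11.98 in drought and 13.98 in well-watered leaves, an interaction of -2.00 (SE 0.28, adjusted p = 0.00303).

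**Figure D3:**
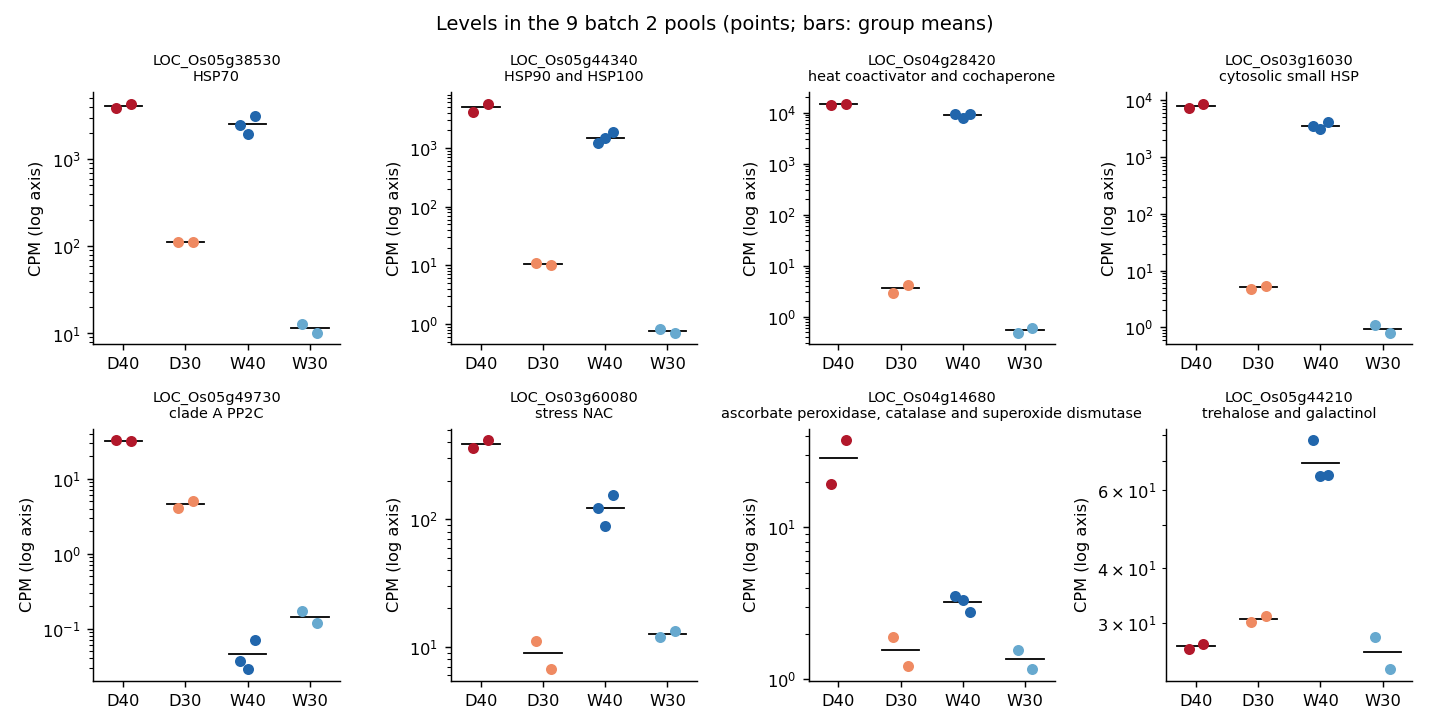
CPM on a log axis (vertical) in each batch 2 pool of the 4 groups (horizontal), with group means as bars, for 8 loci named with their list. For the 4 chaperone loci, the groups D30 and W30 lie further apart than D40 and W40; LOC_Os05g49730, LOC_Os03g60080 and LOC_Os04g14680 are highest in D40, and LOC_Os05g44210 in W40.

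Small heat shock proteins, which hold unfolded proteins until they can be refolded, were raised by heat in drought leaves at all 10 tested cytosolic loci, and in well-watered leaves at 9. The interaction was called for 1 of the 10 by edgeR, 1 by voom and 4 by DESeq2, with 5 at an unadjusted p under 0.05. LOC_Os03g16030 had 7214 and 8789 CPM in the D40 pools and 4.79 and 5.42 CPM in the D30 pools, against 3470.3, 3091 and 4110.3 CPM in the W40 pools and 1.08 and 0.805 CPM in the W30 pools. The drought pools were above the well-watered pools at each temperature, and the interaction was -1.27 (SE 0.27, adjusted p = 0.0138). Its call was lost without W30 replicate 4 (adjusted p = 0.0596), and its neighbours may share its reads. LOC_Os03g16020 had 10119.7 and 11572 CPM in the D40 pools and 5616, 4549 and 6199.6 CPM in the W40 pools, with an interaction of 0.97 (SE 0.32, adjusted p = 0.0688), which did not pass by edgeR. Over 20 alternatives the adjusted p ran from 0.00846 (DESeq2) to 0.551, and it was under 0.05 in 4, among them the fit without W30 replicate 4 (0.0291). Of 5 organelle loci 0 were called by edgeR, DESeq2 or voom, and 0 had an unadjusted p under 0.05. LOC_Os11g13980 had 0 CPM in every D30 and W30 pool, so its interaction cannot be estimated. LOC_Os03g14180 and LOC_Os04g36750 had at most 0.186 CPM in those pools. The lack of calls therefore does not show equal heat responses in the 2 soil waters. D40 pools were nonetheless called above W40 pools for all 5, as for 8 of the 10 cytosolic loci, against 23.3% of all genes.

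Heat stress transcription factors, which bind the promoters of chaperone genes, had called interactions in both directions. In class A, the activators, 2 of 13 loci were above 0 and 0 below, against 7.71% and 9.21% of all genes. LOC_Os03g12370 had 54.6 and 56.3 CPM in the D40 pools and 16.6 and 15.2 CPM in the D30 pools, against 43, 43.6 and 45.5 CPM in the W40 pools and 19.6 and 19.4 CPM in the W30 pools. Its rise was larger in drought, with an interaction of 0.62 (SE 0.11, adjusted p = 0.00696) that was not called with library totals (log2 0.38). The other, LOC_Os02g32590, had an interaction of 0.77 (SE 0.20, adjusted p = 0.028, with an interaction of -0.32 in batch 1). This call was lost in 6 of the 9 fits that each left out 1 pool (adjusted p from 0.0519 to 0.117), the exceptions being those without D40 replicate 4, D30 replicate 3 and W40 replicate 2.

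In classes B and C, which include repressors, 1 of 10 tested loci was above 0 and 3 below, against 7.71% and 9.21% of all genes. LOC_Os09g35790 had 839 and 899 CPM in the D40 pools and 36.6 and 27.4 CPM in the D30 pools, against 721, 625 and 719.6 CPM in the W40 pools and 11.4 and 9.37 CPM in the W30 pools. The drought pools were above the well-watered pools at 30 °C by 1.63 (SE 0.16, adjusted p = 0.000105) on the log2 scale. At 40 °C they lay closer, at 0.34 (SE 0.14, adjusted p = 0.0811), and the interaction was -1.29 (SE 0.22, adjusted p = 0.00602). LOC_Os08g43334 had 353 and 430.4 CPM in the D40 pools and 144, 97.5 and 209 CPM in the W40 pools, with an interaction of -1.85 (SE 0.45, adjusted p = 0.0301). That call was lost in 6 of the 9 fits that each left out 1 pool (adjusted p from 0.0665 to 0.112), the exceptions being those without W40 replicate 2, W40 replicate 3 and W40 replicate 4. LOC_Os01g53220 was low in batch 2, with 0.81 and 1.04 CPM in the D40 pools and 0.575 and 0.743 CPM in the D30 pools, against 0.478, 0.625 and 0.461 CPM in the W40 pools and 1.48 and 1.81 CPM in the W30 pools. Heat lowered it in well-watered leaves, with a log2 heat response of -1.66 (SE 0.24, adjusted p = 0.000302), and the interaction was 2.14 (SE 0.36, adjusted p = 0.00577, with an interaction of 0.58 in batch 1). LOC_Os01g43590 fell further in drought, to 0.0414 and 0.0694 CPM in the D40 pools, and had at most 1.11 CPM in any batch 2 pool. Its interaction of -2.20 (SE 0.50, adjusted p = 0.0181) rests on low values. It lost its call without each of D40 replicate 3, W30 replicate 3 and W30 replicate 4 (adjusted p from 0.0534 to 0.0675).

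Genes of the unfolded protein response of the endoplasmic reticulum rose with heat in both soil waters, all 10 of 10 tested. Of all genes, 26.4% rose in drought leaves and 27.5% in well-watered leaves. In the summed pools none of the 10 had a called interaction by edgeR, DESeq2 or voom, and 1 had an unadjusted p under 0.05. Their median interaction was -0.277, between -0.424 and -0.081. D40 pools were called below W40 pools for 6 of them and above for 1, against 24.6% and 23.3% of all genes. The chaperone lists went the opposite way. LOC_Os02g02410 had 1690.2 and 1629 CPM in the D40 pools, against 2229, 2731 and 2803 CPM in the W40 pools. All D40 pools were lower, with a log2 difference of -0.64 (SE 0.14, adjusted p = 0.00396). Within single segments its interaction was called by edgeR, at -1.14 (adjusted p = 0.0369) in segment 2 and -0.94 (adjusted p = 0.0179) in segment 3. LOC_Os06g50300 and LOC_Os07g14270 were also called below 0 in both of these segments, and LOC_Os09g27830 in segment 3. These segment calls were not tested with pools left out.

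The clade A PP2C list held the largest share of called loci among the lists of abscisic acid signalling. Of its 9 loci, 5 were above 0 and 1 below, against 7.71% and 9.21% of all genes. D40 pools were called above W40 pools for all 9, against 23.3% of all genes. LOC_Os05g49730 had 32.7 and 32.1 CPM in the D40 pools and 4.09 and 5.05 CPM in the D30 pools, against 0.0368, 0.0285 and 0.0702 CPM in the W40 pools and 0.17 and 0.12 CPM in the W30 pools. The D40 pools were far above all others and the W40 pools below the W30 pools. Its log2 heat response was 2.83 in drought and -1.69 in well-watered leaves, an interaction of 4.52 (SE 0.39, adjusted p = 0.000575). The well-watered response compares values of at most 0.17 CPM, so its size and that of the interaction rest on low values. LOC_Os05g46040 had 187 and 163 CPM in the D40 pools and 47.8 and 45.7 CPM in the D30 pools, against 29, 25.2 and 26.7 CPM in the W40 pools and 13.4 and 13.4 CPM in the W30 pools. All 4 groups were separate, and the interaction was 0.89 (SE 0.13, adjusted p = 0.00381). LOC_Os01g46760 had 39.8 and 45.3 CPM in the D40 pools and 21.7 and 20.2 CPM in the D30 pools, against 8.95, 6.56 and 10.8 CPM in the W40 pools and 12.5 and 12.7 CPM in the W30 pools. Heat raised it in drought and lowered it in well-watered leaves, an interaction of 1.55 (SE 0.26, adjusted p = 0.00646, with an interaction of -0.35 in batch 1).

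The remaining calls of this list depended on single pools. LOC_Os03g16170 had 329.8 and 287 CPM in the D40 pools and 28.9 and 26.2 CPM in the D30 pools. It had 17.3, 13.1 and 16.3 CPM in the W40 pools and 2.32 and 2.4 CPM in the W30 pools. Its interaction was 0.76 (SE 0.18, adjusted p = 0.0222), and it lost its call without each of D40 replicate 3, D30 replicate 4, W30 replicate 3 and W30 replicate 4 (adjusted p from 0.0571 to 0.0845). LOC_Os05g51510, with an interaction of 0.52 (SE 0.14, adjusted p = 0.0324, with an interaction of -0.47 in batch 1), lost its call in 8 of the 9 fits that each left out 1 pool (adjusted p from 0.0526 to 0.123), the exceptions being those without W40 replicate 2. LOC_Os05g38290 was below 0, at -1.15 (SE 0.29, adjusted p = 0.0301), although its D40 pools, at 162 and 125 CPM, were far above its W40 pools, at 4.2, 3.36 and 4.91 CPM. The call was lost without each of D40 replicate 4, D30 replicate 3, W30 replicate 3 and W30 replicate 4 (adjusted p from 0.0735 to 0.125).

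The batches differed in this list: the difference between the interactions of batch 2 and batch 1 was called for 7 of the 9 PP2C loci. LOC_Os05g49730 had 0.566 and 0.854 CPM in the D40 pools and 1.35 and 1.61 CPM in the D30 pools of batch 1. In the well-watered leaves of batch 1, the W40 pool was at 0.269 CPM and the W30 pools at 0.264 and 0.228 CPM. There the D40 pools were below the D30 pools. The interaction was -1.18 in batch 1, and the difference between batches was 5.71 (adjusted p = 0.000553). LOC_Os03g16170 had an interaction of 0.76 in batch 2 and -3.41 in batch 1, a difference of 4.19 (adjusted p = 0.000944). For LOC_Os05g46040 these values were 0.89 in batch 2 and -1.18 in batch 1, a difference of 2.09 (adjusted p = 0.000997).

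The bZIP factors downstream of the phosphatases had 2 of 5 tested loci above 0 and 0 below, against 7.71% and 9.21% of all genes. LOC_Os09g28310 had 178 and 192 CPM in the D40 pools and 159 and 132 CPM in the D30 pools, against 68.6, 45.1 and 52.1 CPM in the W40 pools and 104 and 95.6 CPM in the W30 pools. Heat lowered it in well-watered leaves, while the heat response in drought, 0.35 (SE 0.18, adjusted p = 0.132), was not called. Its interaction was 1.20 (SE 0.24, adjusted p = 0.0117, with an interaction of -0.75 in batch 1), and it lost its call without W30 replicate 3 (adjusted p = 0.0505). LOC_Os02g52780 had 277 and 229 CPM in the D40 pools and 33, 25 and 29.7 CPM in the W40 pools, with an interaction of 0.65 (SE 0.19, adjusted p = 0.0484, with an interaction of -2.58 in batch 1). Its call was lost in 7 of the 9 fits that each left out 1 pool (adjusted p from 0.066 to 0.163), the exceptions being those without D40 replicate 4 and W40 replicate 2. Both differed between batches, LOC_Os02g52780 by 3.25 (adjusted p = 0.000512) and LOC_Os09g28310 by 1.97 (adjusted p = 0.00573).

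Receptors of abscisic acid had 1 of 7 tested loci below 0 and 0 above, against 9.21% and 7.71% of all genes. LOC_Os03g18600 had 1.08 and 1.42 CPM in the D40 pools and 3.53 and 3.57 CPM in the D30 pools, against 41.5, 49.2 and 53.5 CPM in the W40 pools and 42.4 and 48.2 CPM in the W30 pools. Drought pools were far below well-watered pools, and heat lowered the locus in drought with no called change in well-watered leaves. Its interaction was -1.59 (SE 0.21, adjusted p = 0.00216) in batch 2, against 4.11 in batch 1, a difference of -5.69 (adjusted p = 0.00769). In the batch 1 D40 pools it was at 10.6 and 8.99 CPM, above the D30 pools, at 1.25 and 1.19 CPM.

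Among loci for the synthesis and breakdown of abscisic acid, 1 of 8 was above 0 and 2 below. LOC_Os08g36860 had 18.5 and 20.5 CPM in the D40 pools and 17.7 and 14.8 CPM in the D30 pools, against 5.01, 3.69 and 4.16 CPM in the W40 pools and 9.05 and 10.8 CPM in the W30 pools. Heat lowered it in well-watered leaves, where the W40 pools were the lowest of all, and its interaction was 1.48 (SE 0.22, adjusted p = 0.00332, with an interaction of -1.13 in batch 1). LOC_Os02g47510 had 625 and 541 CPM in the D40 pools, below every other pool of batch 2, and 1368 and 1310.1 CPM in the D30 pools. It had 1249.7, 1195 and 1005 CPM in the W40 pools and 1423 and 1477 CPM in the W30 pools. Its interaction was -0.86 (SE 0.19, adjusted p = 0.0153), and it lost its call without each of W30 replicate 3 and W30 replicate 4 (adjusted p from 0.0516 to 0.0692). LOC_Os09g28390, whose D40 and W40 pools overlapped, had an interaction of -0.83 (SE 0.24, adjusted p = 0.0456). This call was lost in 7 of the 9 fits that each left out 1 pool (adjusted p from 0.069 to 0.146), the exceptions being those without D40 replicate 3 and W40 replicate 3. LOC_Os03g44380 was far above well-watered levels in drought, with 53.8 and 39.2 CPM in the D40 pools and 0.741, 0.84 and 1.18 CPM in the W40 pools. Its interaction of 0.65 (SE 0.33, adjusted p = 0.218) did not pass, but differed from that of batch 1, -5.60, by 6.27 (adjusted p = 0.000476).

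NAC factors, which switch on stress genes, had 2 of 6 loci above 0 and 0 below, against 7.71% and 9.21% of all genes. LOC_Os03g60080 had 365 and 417 CPM in the D40 pools and 11.1 and 6.65 CPM in the D30 pools, against 123, 89 and 156 CPM in the W40 pools and 11.9 and 13.3 CPM in the W30 pools. The 30 °C groups lay close and the D40 pools were the highest. Its log2 heat response was 5.46 in drought and 3.28 in well-watered leaves, an interaction of 2.18 (SE 0.39, adjusted p = 0.0101). LOC_Os01g66120 had 264 and 269.7 CPM in the D40 pools and 141 and 117 CPM in the D30 pools, against 161, 139 and 149 CPM in the W40 pools and 205 and 169 CPM in the W30 pools. Heat raised it in drought and lowered it in well-watered leaves, an interaction of 1.36 (SE 0.18, adjusted p = 0.00219, with an interaction of 0.39 in batch 1).

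The DREB factors had 0 of 9 loci called by edgeR or voom and 2 by DESeq2, with 2 at an unadjusted p under 0.05. Dehydrins and LEA proteins, which protect drying cells, had 0 of 7 called by edgeR or voom and 1 by DESeq2, with 2 at an unadjusted p under 0.05. All 7 were called higher in drought at both temperatures, against 17.9% of all genes at 30 °C and 23.3% at 40 °C. LOC_Os11g26790, with neighbours that may share its reads, had 733 and 856 CPM in the D40 pools and 114 and 218 CPM in the D30 pools. It was near 0 in well-watered leaves, at most 0.0234 CPM in a W40 pool, so its interaction of 1.28 (SE 1.04) is poorly determined.

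Loci for protective sugars and solutes moved both ways. Of 5 trehalose and galactinol loci, 1 was above 0 and 2 below. LOC_Os05g44210 had 26.3 and 26.9 CPM in the D40 pools and 30.3 and 31.1 CPM in the D30 pools, against 77.8, 64.7 and 65 CPM in the W40 pools and 28 and 23.6 CPM in the W30 pools. Heat raised it in well-watered leaves, while the D40 pools lay slightly below the D30 pools, and the interaction was -1.63 (SE 0.16, adjusted p = 0.000768, with an interaction of 0.11 in batch 1). LOC_Os02g44230 had 0.426 and 0.184 CPM in the D40 pools and 0.284 and 0.352 CPM in the D30 pools, against 2.17, 1.95 and 2.26 CPM in the W40 pools and 0.286 and 0.173 CPM in the W30 pools. Here too the W40 pools stood above the other groups, with an interaction of -3.27 (SE 0.54, adjusted p = 0.0055). LOC_Os10g40550 was above 0, at 1.85 (SE 0.49, adjusted p = 0.0314). That call was lost in 6 of the 9 fits that each left out 1 pool (adjusted p from 0.0554 to 0.122), the exceptions being those without W40 replicate 2, W40 replicate 3 and W40 replicate 4.

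Of 5 loci for proline and glycine betaine, 1 was above 0 and 1 below. LOC_Os10g40360 had 0.911 and 0.275 CPM in the D40 pools and 4.21 and 3.53 CPM in the D30 pools, against 7.59, 8.04 and 8.44 CPM in the W40 pools and 5.26 and 5.43 CPM in the W30 pools. The D40 pools were the lowest and the W40 pools the highest. Its interaction was -3.29 (SE 0.59, adjusted p = 0.0107, with an interaction of 1.17 in batch 1), and it lost its call without each of W30 replicate 3 and W30 replicate 4 (adjusted p from 0.0504 to 0.058). LOC_Os05g38150 was above 0, at 0.60 (SE 0.14, adjusted p = 0.0205, with an interaction of -1.41 in batch 1). It lost its call in 5 of the 9 fits that each left out 1 pool (adjusted p from 0.0508 to 0.0868), the exceptions being those without D40 replicate 4, D30 replicate 4, W40 replicate 2 and W40 replicate 3.

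Enzymes that remove reactive oxygen had 4 of 15 loci above 0 and 2 below. LOC_Os04g14680 had 19.4 and 37.4 CPM in the D40 pools and 1.9 and 1.23 CPM in the D30 pools, against 3.54, 3.3 and 2.78 CPM in the W40 pools and 1.57 and 1.16 CPM in the W30 pools. The 30 °C groups overlapped, and the D40 pools were the highest though far apart from each other. Its log2 heat response was 4.18 in drought and 1.23 in well-watered leaves, an interaction of 2.95 (SE 0.45, adjusted p = 0.0059), against -0.12 in batch 1. LOC_Os05g25850 had 109.5 and 120.0 CPM in the D40 pools and 74.1 and 80.1 CPM in the D30 pools, against 55.7, 57.4 and 58.9 CPM in the W40 pools and 65.2 and 62.5 CPM in the W30 pools. Its interaction was 0.73 (SE 0.12, adjusted p = 0.0055, with an interaction of -0.34 in batch 1), and it was not called with library totals (log2 0.48). LOC_Os03g17690 had 853 and 845 CPM in the D40 pools and 302, 283 and 306 CPM in the W40 pools, with an interaction of 0.78 (SE 0.15, adjusted p = 0.00942, with an interaction of -0.89 in batch 1). The call was lost without W30 replicate 3 (adjusted p = 0.0515). LOC_Os07g46990, at 0.47 (SE 0.12, adjusted p = 0.0232), lost its call in 6 of the 9 fits that each left out 1 pool (adjusted p from 0.0543 to 0.0975), the exceptions being those without D40 replicate 3, W40 replicate 2 and W40 replicate 3.

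The loci below 0 in this list started higher in drought. LOC_Os07g49400 had 2040.3 and 2109.9 CPM in the D40 pools and 774 and 718 CPM in the D30 pools, against 2316, 1743 and 2235 CPM in the W40 pools and 335 and 316 CPM in the W30 pools. The D40 and W40 pools overlapped and the D30 pools were above the W30 pools, an interaction of -1.21 (SE 0.21, adjusted p = 0.00624). LOC_Os03g03910, at -0.75 (SE 0.21, adjusted p = 0.036), lost its call in 7 of the 9 fits that each left out 1 pool (adjusted p from 0.0526 to 0.138), the exceptions being those without W40 replicate 2 and W40 replicate 3.

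Aquaporins, the water channels of membranes, were called in 3 of 15 loci, against 16.9% of all genes. In the tonoplast list LOC_Os05g14240 was above 0, with 5.6 and 2.95 CPM in the D40 pools and 2.89 and 3.37 CPM in the D30 pools, against 0.842, 1.57 and 1.31 CPM in the W40 pools and 6.86 and 11.1 CPM in the W30 pools. Heat lowered it in well-watered leaves, while its heat response in drought, 0.45 (SE 0.38, adjusted p = 0.354), was not called. Its interaction was 3.30 (SE 0.52, adjusted p = 0.00626). LOC_Os01g74450, the other called tonoplast locus, had 6439 and 6794 CPM in the D40 pools and 1813 and 1595 CPM in the D30 pools, against 3953, 2674 and 3699 CPM in the W40 pools and 427 and 388 CPM in the W30 pools. Its rise was smaller in drought, with an interaction of -1.12 (SE 0.26, adjusted p = 0.0183), while its D40 pools were the highest. Its call was lost without each of D40 replicate 3, D30 replicate 3, W30 replicate 3 and W30 replicate 4 (adjusted p from 0.0506 to 0.0721). In the plasma membrane list, with 1 of 10 tested loci called, LOC_Os07g26660 was below 0 at low levels, with 0.285 and 0.4 CPM in the D40 pools and 0.828 and 0.926 CPM in the D30 pools, against 0.357, 0.48 and 0.487 CPM in the W40 pools and 0.191 and 0.108 CPM in the W30 pools. The D40 and W40 pools overlapped, and the interaction was -2.92 (SE 0.48, adjusted p = 0.00566), against 1.46 in batch 1.

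Cellulose synthases, which build the cell wall, had 3 of 9 loci below 0 and 0 above. All 9 were called higher in D30 than in W30 pools, against 17.9% of all genes. LOC_Os05g08370 had 35.9 and 28.7 CPM in the D40 pools and 29.6 and 45.1 CPM in the D30 pools, against 13.5, 12 and 14.7 CPM in the W40 pools and 5.37 and 4.9 CPM in the W30 pools. Heat raised it in well-watered leaves and not by the test in drought, an interaction of -1.59 (SE 0.27, adjusted p = 0.00673). It was 1.92 in batch 1, a difference of -3.49 (adjusted p = 0.00137). LOC_Os03g62090 had an interaction of -1.50 (SE 0.29, adjusted p = 0.01, with an interaction of 0.99 in batch 1). LOC_Os03g59340 had an interaction of -1.63 (SE 0.36, adjusted p = 0.0166, with an interaction of 0.55 in batch 1), and it lost its call without each of D40 replicate 4 and W30 replicate 3 (adjusted p from 0.0602 to 0.0755). Both also differed between batches.

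Of the photosystem and light harvesting loci, 0 of 18 were called by edgeR, DESeq2 or voom, with 0 at an unadjusted p under 0.05. Of the Rubisco and Calvin cycle loci, which fix carbon, 0 of 11 were called by edgeR or voom and 1 by DESeq2, with 1 at an unadjusted p under 0.05. D40 pools were called below W40 pools for 9 of those 11 loci, and D30 pools below W30 pools for 6, against 24.6% and 15.3% of all genes. The chlorophyll breakdown list had 1 of 5 above 0, LOC_Os03g45194, at 0.62 (SE 0.12, adjusted p = 0.0103, with an interaction of -0.44 in batch 1). This call was lost without W30 replicate 3 (adjusted p = 0.0505), and it was not called with library totals (log2 0.37). The circadian clock list had 1 of 10 above 0, against 7.71% of all genes. It was LOC_Os07g49460, at 0.62 (SE 0.16, adjusted p = 0.0284). That call was lost in 6 of the 9 fits that each left out 1 pool (adjusted p from 0.0647 to 0.0967), the exceptions being those without D40 replicate 3, W40 replicate 2 and W40 replicate 3. Repressors of jasmonate signalling had 1 of 7 below 0, LOC_Os07g42370, with 357 and 295 CPM in the D40 pools and 106 and 105 CPM in the D30 pools, against 276, 266 and 347 CPM in the W40 pools and 51.2 and 53.8 CPM in the W30 pools. The 40 °C groups overlapped and the D30 pools were above the W30 pools, an interaction of -0.87 (SE 0.20, adjusted p = 0.0177). It lost its call without each of D30 replicate 4, W30 replicate 3 and W30 replicate 4 (adjusted p from 0.0509 to 0.0756).

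Outside the lists, the largest positive interactions among genes with at least 1 CPM in every pool and a mean of at least 5 CPM were those of LOC_Os05g44300 and LOC_Os08g10500. LOC_Os05g44300 had 37 and 53.7 CPM in the D40 pools and 8.35 and 5 CPM in the D30 pools, against 3.52, 2.17 and 2.56 CPM in the W40 pools and 5.97 and 6.63 CPM in the W30 pools. Its D40 pools were the highest, and the interaction was 3.96 (SE 0.42, adjusted p = 0.00179, with an interaction of 0.046 in batch 1). LOC_Os08g10500 had 306 and 154 CPM in the D40 pools and 8.5 and 6.5 CPM in the D30 pools, against 14.7, 21.9 and 20.2 CPM in the W40 pools and 8.25 and 7.33 CPM in the W30 pools. Its interaction was 3.66 (SE 0.44, adjusted p = 0.00314) in batch 2, against -2.11 in batch 1. The most negative were LOC_Os10g37340 and LOC_Os03g58580. LOC_Os10g37340 had 41.1 and 44.3 CPM in the D40 pools and 50.5 and 76.3 CPM in the D30 pools, against 14, 37.7 and 22.1 CPM in the W40 pools and 1.96 and 3.13 CPM in the W30 pools. The W30 pools were far below the rest, and the interaction was -3.84 (SE 0.66, adjusted p = 0.012, with an interaction of 0.085 in batch 1). The call was lost without each of D40 replicate 3 and W30 replicate 3 (adjusted p from 0.0513 to 0.0603). LOC_Os03g58580 had 26 and 9.01 CPM in the D40 pools and 41.9 and 35.1 CPM in the D30 pools, against 38.4, 44.6 and 40.3 CPM in the W40 pools and 5.33 and 7.41 CPM in the W30 pools. Here too W30 was lowest, with an interaction of -3.82 (SE 0.62, adjusted p = 0.0101), and it lost its call without W30 replicate 3 (adjusted p = 0.056). The files give no names for these 4 genes.

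Along the leaf, the interaction was called for 1791 genes in segment 2 (7.91%), 2724 in segment 3 (12.1%) and 2035 in segment 4 (9.04%). In segment 5 it was called for 1150 genes (5.01%) and in segment 6 for 1103 (4.83%). In all 5 segments and 1 direction, 333 genes were called, and 4 genes were called in opposite directions in different segments. These counts do not show that segments differ, because a test of that difference called 88 of 24586 genes (0.358%). Segment 6 against segment 2 alone gave 254 genes (1.03%). The split of directions within a segment depended on scaling: calls above 0 were 40.1% in segment 4 and 34.6% in segment 5 with TMM scaling, but 52.4% and 46.4% with RLE scaling.

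Of the listed loci, 4 were among the 88, and in each the W30 level rose towards the tip while the other groups moved less. LOC_Os03g16020, a cytosolic small heat shock protein locus, averaged 0.452 CPM in segment 2, 1.08 CPM in segment 4 and 5.87 CPM in segment 6 of the W30 leaves. In the D30 leaves it averaged 2.32 CPM in segment 2 and 2.72 CPM in segment 6. Its interaction was -1.58 (adjusted p = 0.0188) in segment 2 and 2.27 (adjusted p = 0.0132) in segment 6. The sign thus turned along the blade, and segment 6 minus segment 2 was 3.73 (SE 0.43, adjusted p = 7.64e-06).

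For LOC_Os03g16030 of the same list, the interaction was -2.94 (adjusted p = 0.00148) in segment 2 and 0.16 (adjusted p = 0.809) in segment 6. Its W30 mean was 0.341 CPM in segment 2 and 2.2 CPM in segment 6. For LOC_Os02g52150 of the organelle list, it was -1.51 (adjusted p = 0.025) in segment 2 and 0.30 (adjusted p = 0.624) in segment 6. The fourth was LOC_Os06g50300 of the unfolded protein response list, with an interaction of -1.09 (adjusted p = 0.025) in segment 2 and 0.15 (adjusted p = 0.807) in segment 6. Its W30 mean was 59.9 CPM in segment 2 and 159 CPM in segment 6, and its D30 mean was 92.3 CPM in segment 2 and 81.3 CPM in segment 6.

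**Figure D4:**
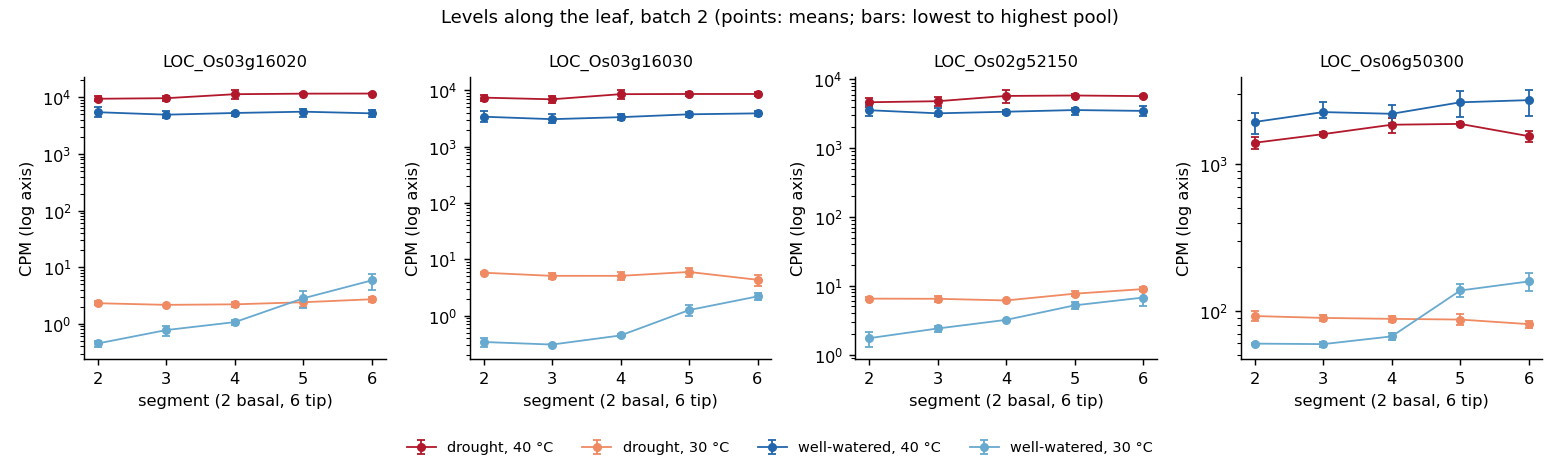
CPM on a log axis (vertical) along the leaf blade from segment 2 at the base to segment 6 at the tip (horizontal) for the 4 listed loci whose interaction differed between segments, batch 2. Points are group means and bars run from the lowest to the highest pool; the W30 line climbs towards the tip in each panel, and the heated groups change little beside it.

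CPM were scaled within each batch, and heat responses were not tested between batches. LOC_Os04g28420 had 1205 and 2135 CPM in the D40 pools and 1268 CPM in the W40 pool of batch 1, far under its batch 2 levels. The W30 pools of batch 1 were unlike each other, with 0.141 and 5.02 CPM, while the D30 pools had 0.787 and 0.839 CPM. LOC_Os03g16020 had 0.321 and 3.79 CPM in the same W30 pools. In both loci W30 replicate 2 was the higher. Leaving out W30 replicate 2 gave 1988 calls in batch 1, and leaving out W30 replicate 1 gave 1169. Leaving out either D40 or either D30 pool gave 0 by edgeR, with 1917 to 3581 genes at an unadjusted p under 0.05, and 541 to 1229 by DESeq2. The part these pools have in the difference between batches was not tested.

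Among 221 listed loci measured in both batches, the difference between interactions was called for 45. LOC_Os05g38530 was alike in direction, with an interaction of -2.59 in batch 2 and -1.83 in batch 1 (adjusted p = 0.0747 in batch 1). LOC_Os09g35790 had -1.29 in batch 2 and -1.76 in batch 1 (adjusted p = 0.0824 in batch 1). Neither passed the test in batch 1, and their difference between batches was not called. The other chaperone loci called below 0 in batch 2 went both ways in batch 1. LOC_Os01g62290 was at -0.57, LOC_Os05g44340 at -0.49 and LOC_Os06g46900 at -0.47. In contrast, LOC_Os04g01740 was at 6.52, LOC_Os04g28420 at 2.07 and LOC_Os03g16030 at 1.51. No such batch 1 interaction passed the test, and no such difference between batches was called.

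**Figure D5:**
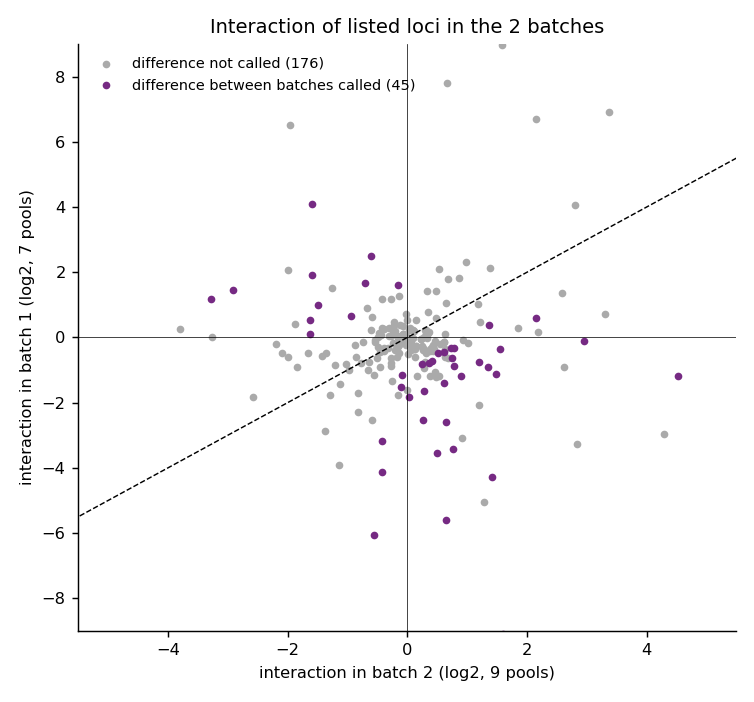
Interaction on the log2 scale of listed loci in batch 1 (vertical, 7 pools) against batch 2 (horizontal, 9 pools), with the dashed line marking equal values. Purple points are the 45 of 221 loci whose difference between batches was called, and 2 loci lie outside the axes; many purple points lie right of 0 in batch 2 and below 0 in batch 1.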

How the data were processed

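Poly(A) RNA was sequenced as paired reads. Tools named in the submitters' processing notes are Picard 3.1.0, HISAT2 2.2.1 and featureCounts 2.0.6, and no source used here names the build. The authors deposited raw counts per gene and library (42189 genes, 42004 with MSU locus IDs), per the file headers. Their deposited batch-corrected counts are estimated counts, rounded here and used in an alternative. The deposited FPKM values were not used. Of raw counts from 1 to 20, 77.71% were even, so both reads of most pairs may have been counted.

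The 5 libraries of a pool (60300951 to 128636996 counts each) were summed. R 4.3.3 and edgeR 4.0.16 were used, with filterByExpr (minimum count 10, minimum total 15), TMM scaling and 2-sided quasi-likelihood F tests on the 9 pools of batch 2. P-values were Benjamini-Hochberg adjusted over all genes tested, and genes with adjusted p under 0.05 were called. The interaction is (D40 minus D30) minus (W40 minus W30) on the log2 scale. SE is the absolute log2 value over the square root of F, and is approximate for loci near 0. CPM are counts relative to the TMM-scaled total within a batch, not per length, so levels are not compared between genes. Segments were fitted singly, and differences between segments and between batches as further interaction terms; the test between segments keeps the pool as a block. Pools of a group differed by far more than sampling noise (lowest chi-square per degree of freedom 54.66). The labels do not say whether pools came from separate plantings.

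The members and the 28 lists (234 loci, entered by hand, 2 lists of markers) were chosen with earlier results of these data known. Named were up to 6 loci per list in order of adjusted p, loci with a log2 heat response above 5 as candidates, and at most 2 genes each way outside the lists. No source states that counting used strand, and near-identical neighbouring loci may share reads. DESeq2 1.42.0, limma 3.58.1 (voom), other scalings, filters, left-out pools and a replicate block were alternatives.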

Additional observations from a re-analysis of the deposited data

Results flagged for a closer look

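The heat response differed between drought and well-watered leaves of batch 2 for 4310 genes by the test of the interaction. The interaction differed between batch 2 and batch 1 for 2564 genes, between segments for 88 genes, and between segment 6 and segment 2 for 254 genes. The loci below are named because their interaction differed between batches or segments by such a test.

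Values for batches are the log2 interaction in batch 2 minus that in batch 1. Values above 0, higher in batch 2, were 1.39 for LOC_Os09g30412, 1.11 for LOC_Os02g32590, 1.57 for LOC_Os01g53220 and 2.62 for LOC_Os08g36860. Others were 6.27 for LOC_Os03g44380, 5.71 for LOC_Os05g49730, 1.92 for LOC_Os01g46760 and 4.19 for LOC_Os03g16170. Next came 2.09 for LOC_Os05g46040, 1.01 for LOC_Os05g51510, 3.25 for LOC_Os02g52780 and 1.97 for LOC_Os09g28310. There were also 0.99 for LOC_Os01g66120, 2.03 for LOC_Os05g38150, 1.07 for LOC_Os03g45194 and 3.08 for LOC_Os04g14680. Then followed 1.68 for LOC_Os03g17690, 1.08 for LOC_Os05g25850, 3.93 for LOC_Os05g44300 and 5.77 for LOC_Os08g10500. Values below 0 were -5.69 for LOC_Os03g18600, -4.45 for LOC_Os10g40360, -1.72 for LOC_Os05g44210 and -4.37 for LOC_Os07g26660. Others were -3.49 for LOC_Os05g08370, -2.48 for LOC_Os03g62090, -2.16 for LOC_Os03g59340 and -3.93 for LOC_Os10g37340.

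Along the blade, segment 6 minus segment 2 on the log2 scale was 3.01 for LOC_Os03g16030, 3.73 for LOC_Os03g16020 and 1.73 for LOC_Os02g52150. The causes of these differences were not tested.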

How the results depend on the processing

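The interaction in batch 2, called for 4310 genes, depended most on which pools entered. With the pools of both batches and a batch term it was called for 0 genes, and so were the genes with larger, smaller and opposite responses in drought and the 48 listed loci. Leaving out each pool in turn gave 1792 to 4746 calls in the interaction, 636 to 1553 larger, 318 to 1005 smaller and 838 to 2188 opposite responses, and 26 to 58 listed loci. It gave 4885 to 9197 calls for drought at 30 °C and 0 to 1988 for the batch 1 interaction. No label used here says that replicate numbers pair the pools. Same-number deviations correlated at -0.146 to 0.21 over 12 pairs (median 0.004). Most groups held 2 pools, whose deviations mirror each other, so pairs repeat and cannot show whether the pools were paired. The fit with replicate number as a block is therefore an alternative only. That block gave 3960 calls in the interaction, kept 77.6% of the 4310 and lost 6 of the listed calls.

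Requiring an absolute log2 of at least 1 left 2110 genes, with 659 larger, 398 smaller and 1053 opposite responses, and 31 listed loci. A filter that required a mean of at least 5 CPM, and 1 CPM in part of the pools, tested 12562 genes. It gave 8308 calls for heat in drought leaves, 8844 for heat in well-watered leaves and 7269 for drought at 40 °C. DESeq2 gave 6199 interaction calls and 1386 smaller responses, and scaling to library totals gave 5169 calls and 2267 larger responses. Scaling to library totals lost 9 of the named calls and turned none.

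In the fit of 16 pools the sign turned for LOC_Os04g01740 (4.33), LOC_Os03g16030 (0.34), LOC_Os02g52150 (0.23), LOC_Os04g28420 (0.84), LOC_Os03g44380 (-1.86) and LOC_Os03g16170 (-0.20). It also turned there for LOC_Os03g18600 (1.22), LOC_Os02g52780 (-0.45), LOC_Os11g26790 (-0.55), LOC_Os05g38150 (-0.11) and LOC_Os05g08370 (0.081). LOC_Os04g01740 was 0.67 with the batch-corrected counts and 0.54 with the mean of segments, where LOC_Os05g38290 was 0.29. The cause was not tested.

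With 2 pools in 3 of the 4 groups, small interactions could be missed. In simulated batch 2 counts, 200 of 25056 genes were changed, whereas 16.9% of genes were called in the data. There 21% of changes of log2 1 and 62% of changes of log2 2 were called. The adjustment of p-values depends on how many genes change, so these shares do not measure what was missed in the data. Of 93 simulated calls 10 were false.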
